A study of Homo sapiens with 17 samples.

Results

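The genes described here encode troponins, tropomyosins and sarcomeric actins of the thin filament: TNNT2, TNNT1, TNNC1, TNNI1, TNNI3, TPM1, TPM2, ACTC1 and ACTA1. They were taken by gene name from the table of expression, in which they are 9 of 20218 genes, and all 9 passed the filter on low values that left 14845 genes for testing. RNA-seq had been done on 17 libraries of H9 cells, an established human embryonic stem cell line, carrying a SHOX2 reporter read as GFP and a second reporter read as mCherry, after directed differentiation and sorting. The groups were GFP+mCherry+ cells (libraries 1, 4 and 7 at day 25, libraries 10 and 13 at day 40), GFP-mCherry+ cells (libraries 2, 5 and 8 at day 25, libraries 11, 14 and 17 at day 40) and GFP-mCherry- cells (libraries 3, 6 and 9 at day 25, libraries 12, 15 and 18 at day 40). The growth protocol describes a cardiomyocyte procedure and a sinoatrial one and does not tie a sorted population to either, and all groups share a single line and a single cell type label, sinoatrial node-like cells. The labels do not name the gene behind mCherry. They also leave unsaid whether replicate libraries were grown separately, and p-values measure only their spread, which may be technical.

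Thin filaments are the actin filaments of striated muscle, on which myosin pulls. Tropomyosin lies along the actin filament and is moved by the troponin complex, in which troponin C binds calcium, troponin I inhibits the interaction with myosin, and troponin T anchors the complex to tropomyosin. Heart muscle uses TNNT2, TNNC1, TPM1 and ACTC1, and developing human heart muscle contains the slow skeletal isoform TNNI1 that is later replaced by the cardiac isoform TNNI3. TNNT1 and ACTA1 are best known as the slow skeletal troponin T and the skeletal muscle actin.

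The upstream sequences of 4 members are shown as examples. Against GFP-mCherry- cells, ACTC1, ACTA1 and TNNT2 were called higher in GFP-mCherry+ cells at both days, and TNNT1 lower. The matched members not shown were called higher there too, TNNI3 and TPM1 at both days and TPM2 at day 25. Each sequence shown runs 5′ to 3′ over the 250 bases before a gene start in RefSeq (GRCh38.p14, all on the minus strand), with matched words in capitals. A CArG box, the site of serum response factor, and the word TATAAA are in capitals in both actins. The word CATTCC, known from TEAD factors, or its reverse complement is in capitals in ACTA1 and TNNT2. The reverse complement of the word AGATAA, known from the GATA-binding family, is in capitals in TNNT2. The word TATAAA is also the part in capitals in the promoter of TNNT1, with no other match there.
ACTC1, chr15:34795550-34795799: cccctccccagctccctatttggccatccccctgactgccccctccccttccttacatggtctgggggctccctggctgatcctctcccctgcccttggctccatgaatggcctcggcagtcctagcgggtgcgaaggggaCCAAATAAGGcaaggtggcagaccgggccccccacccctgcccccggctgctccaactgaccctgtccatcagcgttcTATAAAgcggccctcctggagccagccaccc
ACTA1, chr1:229434095-229434344: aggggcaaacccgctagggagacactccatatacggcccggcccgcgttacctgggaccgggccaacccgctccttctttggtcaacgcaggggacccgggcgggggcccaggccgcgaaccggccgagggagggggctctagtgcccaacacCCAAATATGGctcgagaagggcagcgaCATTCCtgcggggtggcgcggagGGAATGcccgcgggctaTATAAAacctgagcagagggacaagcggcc
TNNT2, chr1:201377681-201377930: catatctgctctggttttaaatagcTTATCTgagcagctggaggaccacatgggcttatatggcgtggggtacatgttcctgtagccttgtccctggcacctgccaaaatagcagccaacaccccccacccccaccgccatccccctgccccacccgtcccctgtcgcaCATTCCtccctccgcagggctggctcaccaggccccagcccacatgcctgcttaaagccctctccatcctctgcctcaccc
TNNT1, chr19:55149207-55149456: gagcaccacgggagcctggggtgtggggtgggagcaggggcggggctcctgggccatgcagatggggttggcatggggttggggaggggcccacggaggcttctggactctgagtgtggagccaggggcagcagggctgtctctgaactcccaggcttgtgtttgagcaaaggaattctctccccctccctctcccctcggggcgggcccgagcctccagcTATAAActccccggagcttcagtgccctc

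Promoters of 7 of the 9 members were matched by symbol, 10 sequences in all, and the words were searched on both strands of each. The CArG box began 109 bases before the start in ACTC1 and 97 bases before it in ACTA1, in no other matched member, and was held by 1.16% of the 35114 human promoters of that length in the table. TATAAA began 31, 30 and 29 bases before the start of ACTC1, ACTA1 and TNNT1 and was held by 10.7% of promoters. The other matched starts of ACTC1, not shown, had neither a CArG box nor TATAAA, and CATTCC began 174 bases before the last. CATTCC was held by 11.9% of promoters, AGATAA by 9.17% and TGATAA, which no matched member held, by 6.66%. The site of the MEF2 factors was held by 2.8% of promoters and by no matched member. TNNI3 held AGATAA at 2 places, and TPM1 and TPM2 held none of the words. A match describes the letters of this window and was not linked to any binding measured here.

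Levels are in FPKM, fragments scaled by transcript length and by library total. Summed FPKM lay between 566029 and 660085 in the 17 libraries, and 12944 to 13793 genes reached 1 FPKM. Libraries 13 and 14 listed fewer genes above 0, 16493 and 16598, than the other libraries, with 17108 to 17806. SHOX2, which checks the GFP label, was at 49.0 to 139 FPKM in GFP+mCherry+ cells at day 25 and at 0.901 to 1.73 FPKM in GFP-mCherry+ cells. At day 40 it was at 58.5 to 90.2 and 1.39 to 2.41 FPKM in these populations. Of 8 sinoatrial markers, 5 were higher and 0 lower in GFP+mCherry+ than in GFP-mCherry+ cells at day 25, and 3 were higher at day 40. In this comparison 20.4% and 25.5% of all genes tested were called at an adjusted p under 0.05. The pacemaker channel gene HCN4 differed by only -0.04 ± 0.33 (log2, SE) at day 25. Of the 11 skeletal muscle markers in the table, summed levels stayed between 1.64 and 4.40 FPKM in every group, 2 could be tested, and 1 to 3 were at 0 in every library of a group.

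By group mean, the thin filament genes were highest in GFP-mCherry+ cells, intermediate in GFP+mCherry+ cells and lowest in GFP-mCherry- cells. A single member, TNNT1, ran the opposite way. Not every step was called. TPM2 and ACTA1 were called between the mCherry+ populations at neither day. TNNI1, TNNI3, TPM1 and TPM2 were called between GFP+mCherry+ and GFP-mCherry- cells at neither day. The ACTA1 median at day 25 was 24.6 FPKM in GFP+mCherry+ and 19.9 FPKM in GFP-mCherry+ cells. The 9 members held 3.10% ± 0.55 (SD, n = 3) of all FPKM in GFP-mCherry+ cells at day 25 and 3.93% ± 0.68 (n = 3) at day 40. In GFP+mCherry+ cells the share was 1.40% ± 0.43 (n = 3) and 1.34% ± 0.20 (n = 2), and in GFP-mCherry- cells 0.423% ± 0.040 (n = 3) and 0.503% ± 0.20 (n = 3). ACTC1, TNNT2 and TPM1 ranked 2, 3 and 4 by mean FPKM among all genes of the table in GFP-mCherry+ cells at day 40. TPM1 led the members in GFP-mCherry- cells, where it made up 43.1% to 71.1% of their summed FPKM in single libraries. In sorted bulk samples, fewer cells of a type and less RNA per cell cannot be told apart.

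**Figure D1:**
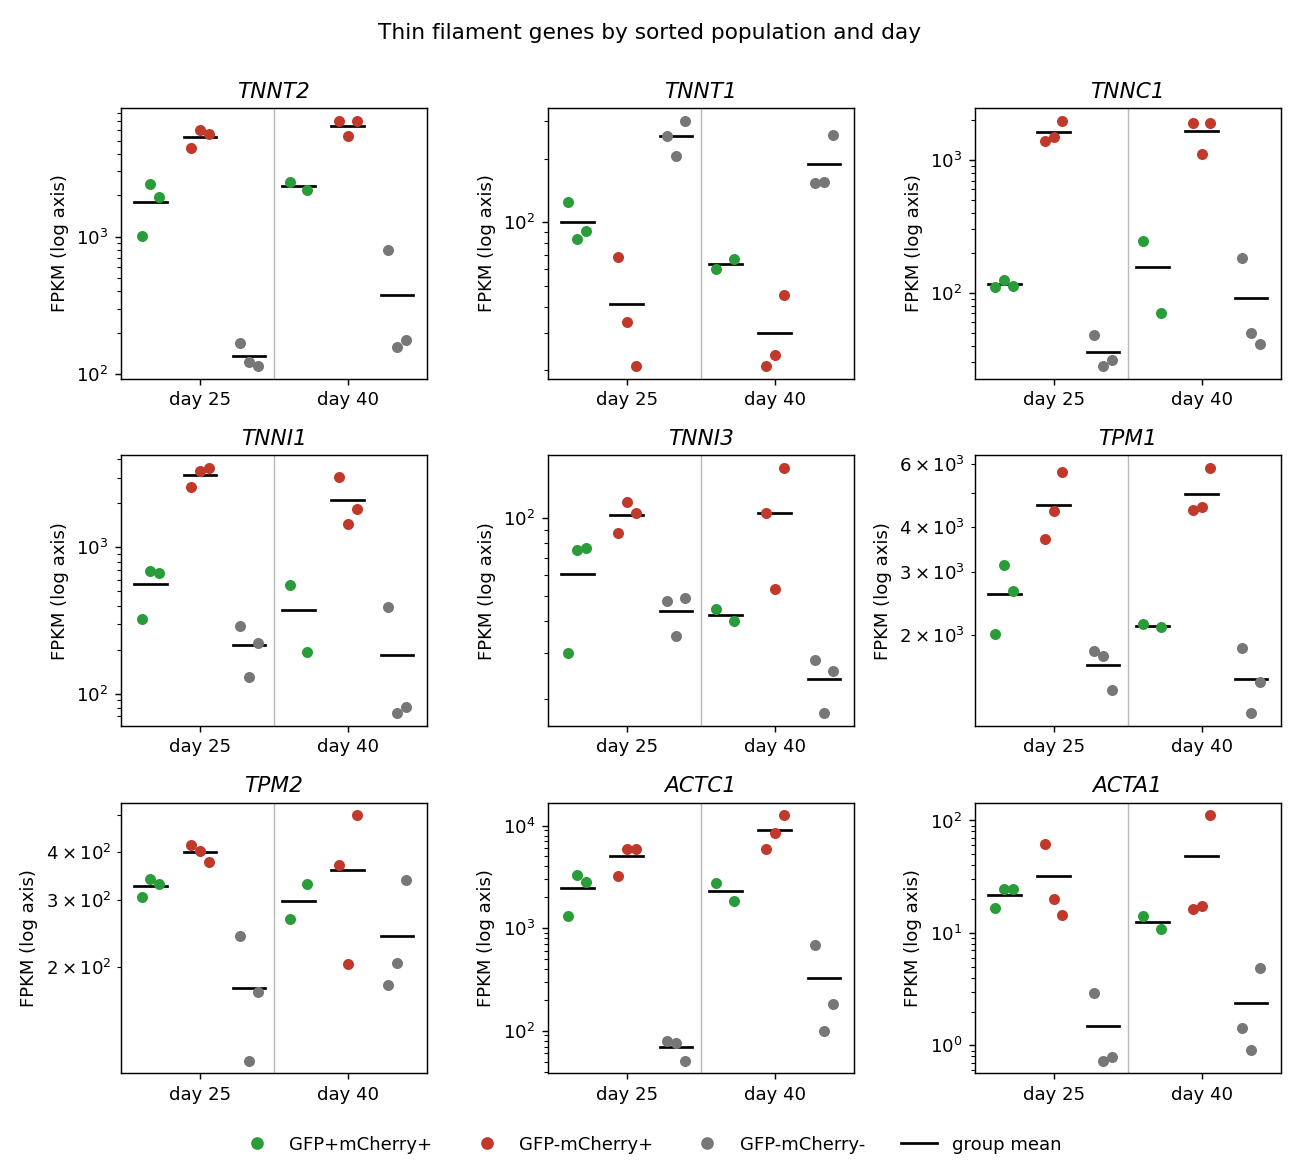
FPKM (log axis) of each of the 9 genes in each library, by day on the horizontal axis and by sorted population in color, with bars at group means. In TNNT1 the GFP-mCherry- libraries lie on top, and in the other 8 genes the GFP-mCherry+ means are the highest at both days, though TPM2 overlaps between populations at day 40.

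Counts of calls, with differences on the log2(FPKM + 1) scale and an adjusted p under 0.05 as the threshold, follow for each pair of populations. GFP-mCherry+ against GFP-mCherry- cells gave 8 of 9 members higher and 1 lower at day 25, where 28.5% of all genes tested were called, and 7 higher and 1 lower at day 40, where 31.9% were called. The median difference over the members was 3.57 at day 25 and 3.46 at day 40, beside -0.10 and -0.09 over all genes. GFP+mCherry+ against GFP-mCherry- cells gave 4 higher and 1 lower at day 25 (11.1% of all genes called) and 2 higher and 1 lower at day 40 (11.8% called), with medians of 1.39 and 0.86 beside -0.03 and 0.02. GFP+mCherry+ against GFP-mCherry+ cells gave 1 higher and 4 lower at day 25 (20.4% of all genes called) and 1 higher and 6 lower at day 40 (25.5% called), with medians of -0.86 and -1.30 beside 0.06 and 0.08. These 3 comparisons share libraries and are not independent of each other. For GFP+mCherry+ against GFP-mCherry+ cells, 5 member calls at day 25, among 3023 over all genes, became 2 without library 1 or 8 (2135 and 1818 over all genes) and 3 without library 5 (1766). The 7 member calls at day 40, among 3783 over all genes, became 1 without library 13 (1241), 3 without library 10 (3871) and 4 without library 3, 5, 6, 9, 11 or 17 (2905 to 3658). For GFP+mCherry+ against GFP-mCherry- cells, 5 member calls at day 25, among 1641, became 3 without library 4, 7 or 9 (859 to 1019), and 3 at day 40, among 1751, became 5 without library 12 (2070). With a block on library sets, meaning runs of 3 consecutive library numbers that the labels do not call batches, the members called in this comparison were 7 at day 25 (among 2087) and 4 at day 40 (among 1505).

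**Figure D2:**
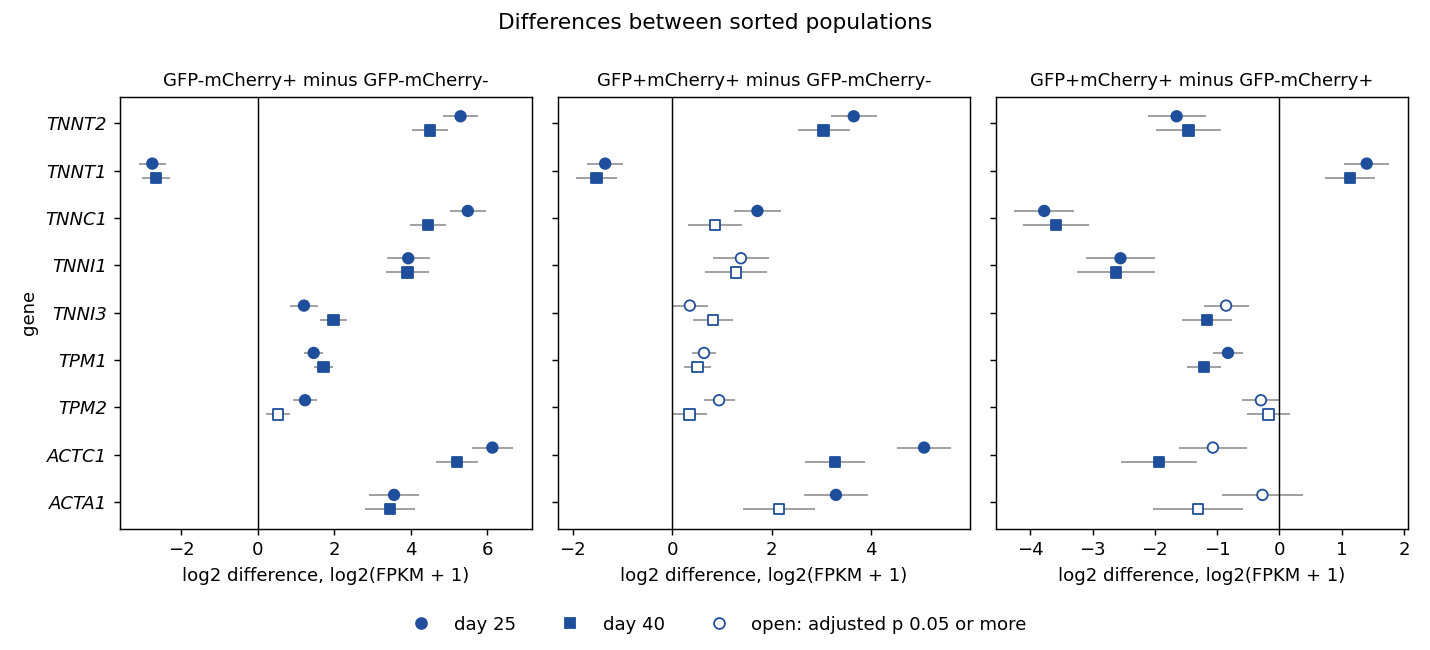
Log2 differences (horizontal axis) of each gene (vertical axis) for 3 pairs of populations, with standard errors of the moderated fit as bars, circles for day 25 and squares for day 40. Filled symbols passed an adjusted p under 0.05; TNNT1 lies across 0 from the other members in each panel.

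TNNT2 (ENSG00000118194, chr1:201328136-201346890 in hg19), the cardiac troponin T, was at 4418, 5957 and 5609.9 FPKM in the GFP-mCherry+ libraries of day 25. The GFP+mCherry+ libraries held 1006, 2427.5 and 1955 FPKM, with library 1 the lowest, and the GFP-mCherry- libraries 168, 123 and 114 FPKM. The 3 populations did not overlap. GFP+mCherry+ cells were lower than GFP-mCherry+ cells by a log2 difference of -1.65 ± 0.46 (SE, adjusted p = 0.0207) and higher than GFP-mCherry- cells by 3.65 ± 0.46 (adjusted p = 0.000156). Leaving out library 1, 5 or 8 moved the first adjusted p to between 0.0626 and 0.0923, with differences of -1.61 to -1.28, and quantile normalization to 0.0725, with -1.20.

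At day 40 TNNT2 stood at 7001, 5404 and 6929 FPKM in GFP-mCherry+ cells and at 2489.6 and 2179.6 FPKM in GFP+mCherry+ cells. GFP-mCherry- cells held 157 and 177 FPKM in libraries 15 and 18 and 796 FPKM in library 12, again with no overlap between populations. The difference of GFP+mCherry+ from GFP-mCherry+ cells was -1.46 ± 0.52, at an adjusted p of 0.0496 that lies at the threshold. It lost its call when any of 13 libraries was left out alone (libraries 2 to 11, 13, 14 and 17), with adjusted p from 0.0510 to 0.247 and differences of -1.58 to -1.36. The call was also lost under a pseudocount of 0.1, quantile normalization and quality weights, with all genes kept, and without libraries 13 and 14 together (adjusted p 0.0520 to 0.214, differences -1.50 to -1.08). The difference between GFP-mCherry+ and GFP-mCherry- cells was 5.30 ± 0.46 at day 25 and 4.51 ± 0.46 at day 40, and the latter was 5.26 without library 12. GFP+mCherry+ cells exceeded GFP-mCherry- cells by 3.05 ± 0.52 at day 40 (adjusted p = 0.00164), and by 3.80 without library 12. The locus of TNNT2 overlaps that of LAD1, whose group means were 3.85 to 12.7 FPKM, and strand-specific counting is not stated in the sources used here.

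Library 12 stood apart from the other GFP-mCherry- libraries of its day in several members. Its summed level of 13 cardiomyocyte markers was the highest of the group, 2447 FPKM, where the lowest was 570 FPKM. At day 25 these sums ran from 611 to 786 FPKM in GFP-mCherry- cells. The part of cardiomyocytes in the day 40 values of GFP-mCherry- cells was not tested.

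TNNT1 (ENSG00000105048, chr19:55644162-55660722), the slow skeletal troponin T, was at 256, 205 and 302 FPKM in GFP-mCherry- cells at day 25. GFP+mCherry+ cells held 125, 83.6 and 90.9 FPKM and GFP-mCherry+ cells 68.4, 33.8 and 21.0 FPKM. The order of the populations was thus the reverse of that of TNNT2, with no overlap between any 2 of them. GFP+mCherry+ cells exceeded GFP-mCherry+ cells by 1.403 ± 0.36 (adjusted p = 0.0132) and were below GFP-mCherry- cells by a difference of -1.34 ± 0.36 (adjusted p = 0.0251). The first call was lost without library 1 or 8 (adjusted p 0.0543 to 0.0715, difference 1.02 to 1.23), and the second without library 3, 4, 7 or 9 (adjusted p 0.0726 to 0.0981, difference -1.33 to -1.21).

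At day 40 the order of TNNT1 was the same. GFP-mCherry- cells held 153, 155 and 258 FPKM, GFP+mCherry+ cells 59.9 and 66.9 FPKM, and GFP-mCherry+ cells 20.9, 23.5 and 45.5 FPKM. The excess of GFP+mCherry+ over GFP-mCherry+ cells was 1.14 ± 0.40 with an adjusted p of 0.0485, and leaving out any of 12 libraries (3 to 7 and 9 to 15) ended the call, with adjusted p of 0.0523 to 0.245 and differences of 0.93 to 1.22. So did no filter, median-of-ratios scaling, a fit of only the groups compared, quality weights and leaving out libraries 13 and 14 together (adjusted p 0.0644 to 0.315, differences 0.93 to 1.14). Against GFP-mCherry- cells the difference was -1.52 ± 0.40 (adjusted p = 0.023), and this call was lost without library 10, 13 or 18 (adjusted p 0.0819 to 0.119, difference -1.60 to -1.27), with quality weights (adjusted p = 0.0693) and without libraries 13 and 14 together (adjusted p = 0.12). GFP-mCherry+ cells were below GFP-mCherry- cells by -2.75 ± 0.36 at day 25 and -2.66 ± 0.36 at day 40, and both calls held in all 27 alternatives that were run.

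TNNC1 (ENSG00000114854, chr3:52485118-52488086), the calcium-binding troponin of heart and slow muscle, had the largest differences among the members between both mCherry+ populations. GFP-mCherry+ libraries held 1385, 1491 and 1978 FPKM at day 25, and GFP+mCherry+ libraries 110.3, 125 and 113 FPKM, close to each other. GFP-mCherry- libraries held 47.6, 27.8 and 31.0 FPKM. On the log2 scale GFP+mCherry+ cells were thus nearer to the GFP-mCherry- than to the GFP-mCherry+ level. The differences were -3.78 ± 0.48 from GFP-mCherry+ cells (adjusted p = 0.000216) and 1.72 ± 0.48 from GFP-mCherry- cells (adjusted p = 0.0304). The second call was lost without library 1, 4, 6, 7 or 9 (adjusted p 0.0614 to 0.102, difference 1.57 to 1.75) and when genes with low values were kept (adjusted p = 0.0599).

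At day 40 TNNC1 was at 1907, 1107 and 1908 FPKM in GFP-mCherry+ cells. The pair of GFP+mCherry+ libraries was split, with 244 FPKM in library 10 and 70.6 FPKM in library 13. GFP-mCherry- cells held 49.3 and 41.2 FPKM in libraries 15 and 18 and 181 FPKM in library 12, so that these 2 populations overlapped. GFP+mCherry+ cells stayed below GFP-mCherry+ cells by a difference of -3.59 ± 0.53 (adjusted p = 0.000439), which was -4.48 without library 10 and -2.70 without library 13. The difference from GFP-mCherry- cells was 0.86 ± 0.53 (adjusted p = 0.307). It was -0.03 without library 10, 1.75 without library 13 and 1.52 without library 12 (the last with an adjusted p of 0.0301). The call of lower TNNC1 in GFP+mCherry+ than in GFP-mCherry+ cells held at each day in all 27 alternatives.

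TNNI1 (ENSG00000159173, chr1:201373625-201398994), the slow skeletal troponin I of developing heart, was at 2584, 3355 and 3512 FPKM in GFP-mCherry+ cells at day 25. GFP+mCherry+ cells held 323, 694 and 672 FPKM, and GFP-mCherry- cells 289, 129.5 and 223 FPKM. GFP-mCherry+ libraries stood far above both other populations, which did not overlap but lay close together. The difference of GFP+mCherry+ from GFP-mCherry+ cells was -2.55 ± 0.56 (adjusted p = 0.00556). That from GFP-mCherry- cells was 1.39 ± 0.56 (adjusted p = 0.127), and it passed the threshold without library 12 (adjusted p = 0.0401), with only the groups compared (0.0413), with the block on library sets (0.0261) and with quality weights (0.000388).

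At day 40 TNNI1 was at 3058, 1452 and 1845 FPKM in GFP-mCherry+ cells, 558 and 191 FPKM in GFP+mCherry+ cells, and 394, 73.1 and 81.3 FPKM in GFP-mCherry- cells, where library 12 was again the highest. GFP+mCherry+ cells were lower than GFP-mCherry+ cells by a difference of -2.62 ± 0.62 (adjusted p = 0.0065), which was -3.39 without library 10 and -1.85 without library 13 (the latter with an adjusted p of 0.146) and -2.09 without libraries 13 and 14 together (adjusted p = 0.106). They overlapped with GFP-mCherry- cells, at a difference of 1.29 ± 0.62 (adjusted p = 0.187) that was 0.52 without library 10, 2.06 without library 13 and 2.07 without library 12 (the last with an adjusted p of 0.0138). GFP-mCherry+ cells exceeded GFP-mCherry- cells by 3.94 ± 0.56 and 3.91 ± 0.56 at the 2 days, and by 4.69 at day 40 without library 12.

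TNNI3 (ENSG00000129991, chr19:55663137-55669141), the adult cardiac troponin I, was far less abundant than TNNI1 in GFP-mCherry+ cells on the FPKM scale. It ranged from 87.5 to 115 FPKM there at day 25, from 30.0 to 76.6 FPKM in GFP+mCherry+ cells and from 34.8 to 49.0 FPKM in GFP-mCherry- cells. The first of these ranges overlapped neither of the others, which overlapped each other. GFP+mCherry+ minus GFP-mCherry+ cells was -0.86 ± 0.36 (adjusted p = 0.106) at day 25 and -1.16 ± 0.40 (adjusted p = 0.0457) at day 40. The day 40 call was lost when any of 11 libraries was left out (2, 3, 5, 6, 8 to 11, 13, 17 and 18), with adjusted p of 0.0521 to 0.236 and differences of -1.24 to -0.81. It was also lost with no filter, with only the groups compared, with the block on library sets and without libraries 13 and 14 together (adjusted p 0.0525 to 0.126, differences -1.50 to -0.95), while quality weights called the difference of day 25 (-0.56, adjusted p = 0.0253).

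Against GFP-mCherry- cells, TNNI3 was higher in GFP-mCherry+ cells by 1.21 ± 0.36 at day 25 (adjusted p = 0.0188) and by 1.99 ± 0.36 at day 40 (adjusted p = 0.000648). Without library 5, 6 or 8 the day 25 call was lost (adjusted p 0.0529 to 0.0794, difference 1.06 to 1.20). GFP+mCherry+ and GFP-mCherry- cells differed in TNNI3 by 0.36 ± 0.36 (adjusted p = 0.578, but 0.00742 with quality weights) and 0.83 ± 0.40 (adjusted p = 0.193). TNNI3 and TNNT1 are near each other on chromosome 19 and, over the 17 libraries, their log2 levels correlated at r = -0.68.

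TPM1 (ENSG00000140416, chr15:63334831-63364114), the main tropomyosin of heart muscle that other cell types also make, was abundant in every population. It ranged from 3698 to 5702 FPKM in GFP-mCherry+ cells, from 2018 to 3137 FPKM in GFP+mCherry+ cells and from 1400.1 to 1807 FPKM in GFP-mCherry- cells at day 25. These ranges did not overlap, nor did those of day 40, of 4466 to 5866 FPKM, 2101 to 2147 FPKM and 1207 to 1836 FPKM. The differences of GFP+mCherry+ from GFP-mCherry+ cells were -0.82 ± 0.24 at day 25 (adjusted p = 0.0248) and -1.21 ± 0.27 at day 40 (adjusted p = 0.0045). The call of day 25 was lost without library 1, 5, 7 or 8 (adjusted p 0.0577 to 0.116, difference -0.85 to -0.65) and that of day 40 without library 13 (adjusted p = 0.0502, difference -1.20). The call of day 25 was also lost with no filter, quantile normalization and only the groups compared (adjusted p 0.0621 to 0.0978, differences -0.82 to -0.51), and that of day 40 with only the groups compared (adjusted p = 0.0646). GFP-mCherry+ cells were above GFP-mCherry- cells by 1.47 ± 0.24 and 1.73 ± 0.24, while GFP+mCherry+ cells exceeded them by 0.64 ± 0.24 (adjusted p = 0.102, but 0.0169 under quantile normalization and 0.000632 with quality weights) and 0.52 ± 0.27 (adjusted p = 0.222).

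TPM2 (ENSG00000198467, chr9:35681989-35691017), the beta tropomyosin of slow skeletal and smooth muscle, was at 114 to 500.2 FPKM over all libraries. At day 25 it ranged from 377 to 418 FPKM in GFP-mCherry+ cells, 304 to 341 FPKM in GFP+mCherry+ cells and 114 to 242 FPKM in GFP-mCherry- cells. At day 40 the 3 ranges of 204 to 500.2 FPKM, 267 to 330 FPKM and 180.0 to 337 FPKM overlapped. GFP-mCherry+ cells exceeded GFP-mCherry- cells by 1.24 ± 0.31 at day 25 (adjusted p = 0.00671) and by 0.53 ± 0.31 at day 40 (adjusted p = 0.211, but 0.0307 without library 14 and 0.0343 without libraries 13 and 14, each with a difference of 0.89). GFP+mCherry+ minus GFP-mCherry+ cells was -0.30 ± 0.31 (adjusted p = 0.541) at day 25 and -0.18 ± 0.35 (adjusted p = 0.75) at day 40, the latter turning to 0.012 under quantile normalization, 0.10 with a block on library sets and 0.11 without library 17. GFP+mCherry+ minus GFP-mCherry- cells was 0.95 ± 0.31 at day 25, with an adjusted p of 0.0627 that fell to between 0.0285 and 0.0479 without library 3, 14, 17 or 18, and 0.36 ± 0.35 at day 40. The day 25 difference was also called under quantile normalization, with only the groups compared, with quality weights, with the block on library sets and without libraries 13 and 14 (adjusted p 0.000267 to 0.0419).

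ACTC1 (ENSG00000159251, chr15:35080297-35088340), the cardiac alpha actin, separated mCherry+ from mCherry- cells more widely than any other member. GFP-mCherry+ libraries held 3221, 5902 and 5869.7 FPKM at day 25, GFP+mCherry+ libraries 1300.2, 3270.5 and 2849 FPKM, and GFP-mCherry- libraries 79.6, 75.7 and 51.2 FPKM. Both mCherry+ populations overlapped and lay far above the GFP-mCherry- libraries. The differences from GFP-mCherry- cells were 6.13 ± 0.54 in GFP-mCherry+ cells and 5.07 ± 0.54 in GFP+mCherry+ cells (adjusted p = 1.5e-06 and 3.63e-05). Between both mCherry+ populations the difference was -1.07 ± 0.54 (adjusted p = 0.179), and -0.92 with quality weights (adjusted p = 0.0222).

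At day 40 ACTC1 was at 5967, 8392 and 12738 FPKM in GFP-mCherry+ cells, the last in library 17, and at 2752 and 1842 FPKM in GFP+mCherry+ cells. GFP-mCherry- cells held 689 FPKM in library 12 and 98.9 and 183 FPKM in libraries 15 and 18, and no populations overlapped. GFP+mCherry+ cells were below GFP-mCherry+ cells by a difference of -1.93 ± 0.61 (adjusted p = 0.0286). Without library 10, 13 or 17 this call was lost (adjusted p 0.0504 to 0.229, difference -2.22 to -1.64). It was also lost with no filter, quantile normalization, quality weights and without libraries 13 and 14 together (adjusted p 0.0530 to 0.237, differences -2.09 to -1.40). The change of this difference between the days, -0.87 ± 0.82, was not called (adjusted p = 0.923), so a larger difference at day 40 was not shown. Above GFP-mCherry- cells, GFP-mCherry+ cells stood by 5.21 ± 0.54 (5.99 without library 12, 4.60 without library 15) and GFP+mCherry+ cells by 3.27 ± 0.61 (4.06 without library 12, 2.66 without library 15). The latter call was lost with only the groups compared (adjusted p = 0.0509).

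ACTA1 (ENSG00000143632, chr1:229566992-229569845), the skeletal alpha actin that heart muscle also makes, was far less abundant than ACTC1 on the FPKM scale. It was at 61.4, 19.9 and 14.6 FPKM in GFP-mCherry+ cells at day 25, with library 2 the highest, at 16.6, 24.6 and 24.6 FPKM in GFP+mCherry+ cells and at 2.95, 0.733 and 0.783 FPKM in GFP-mCherry- cells. At day 40 the values were 16.2, 17.4 and 112 FPKM, the last in library 17, against 14.1 and 10.8 FPKM and against 1.42, 0.919 and 4.85 FPKM. Both mCherry+ populations exceeded the GFP-mCherry- libraries at each day.

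GFP-mCherry+ cells were above GFP-mCherry- cells in ACTA1 by 3.57 ± 0.65 at day 25 (2.97 without library 2) and by 3.46 ± 0.65 at day 40 (2.57 without library 17), and all 4 of these values were called. GFP+mCherry+ cells were above GFP-mCherry- cells by 3.29 ± 0.65 (adjusted p = 0.00408) and 2.15 ± 0.72 (adjusted p = 0.0644, but 0.0202 to 0.0494 without library 2 or 17, 0.0446 under quantile normalization and 0.00439 with the block on library sets, where the difference was 2.84). Between both mCherry+ populations the difference was -0.27 ± 0.65 at day 25 (adjusted p = 0.805) and 0.33 without library 2. It was -1.30 ± 0.72 at day 40 (adjusted p = 0.2) and -0.41 without library 17. With a pseudocount of 1 the fold of ACTA1 against GFP-mCherry- cells is understated, since several of those values lie below 1 FPKM.

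Isoforms of a protein were set against each other within each library, since FPKM is scaled by length. TNNT1 made up 60.4%, 62.6% and 72.6% of the troponin T pair (TNNT1 plus TNNT2) in GFP-mCherry- cells at day 25, 11.1%, 3.33% and 4.44% in GFP+mCherry+ cells and 1.52%, 0.564% and 0.373% in GFP-mCherry+ cells. At day 40 it made up 16.1%, 49.8% and 59.3%, the first in library 12, against 2.35% and 2.98% and against 0.297%, 0.434% and 0.653%. No 2 populations overlapped at either day. The log2 ratio of TNNT1 to TNNT2, with 1 added to both, was higher in GFP+mCherry+ than in GFP-mCherry+ cells by 2.82, lower in GFP+mCherry+ than in GFP-mCherry- cells at -4.78, and lower in GFP-mCherry+ than in GFP-mCherry- cells at -7.61 (each p = 0.005 and adjusted p = 0.0267 over 16 ratio tests, by a two-sided exact permutation test within days). Between the days, day 40 minus day 25 was -1.09 (exact permutation p = 0.0168, adjusted p = 0.0383). The p of 0.005 is the lowest that 200 or 400 arrangements can give here. Leaving out a library leaves fewer arrangements and raises the lowest p possible in the tests that used it. Adjustment over 16 tests carries this to the others, so a lost call does not by itself show a smaller difference. The call between both mCherry+ populations was lost without library 11, 13 or 14 (values 2.69 to 2.82). Those against GFP-mCherry- cells were lost without library 13 (values -4.87 and -7.61). The call between the days was lost when any of 11 libraries was left out, at values of -1.15 to -0.90. These were libraries 1 to 3, 5 to 7, 9 to 11, 13 and 14.

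TNNI3 made up a minority of the troponin I pair (TNNI3 plus TNNI1) in every library. Its share was 3.28%, 3.33% and 2.88% in GFP-mCherry+ cells at day 25, 8.52%, 9.74% and 10.2% in GFP+mCherry+ cells and 14.1%, 21.2% and 18.0% in GFP-mCherry- cells, with no overlap. At day 40 the GFP-mCherry+ share was 3.29%, 3.53% and 7.80%, the GFP+mCherry+ share 7.37% and 17.3% and the GFP-mCherry- share 6.69%, 19.3% and 23.9%, so that populations overlapped. The log2 ratio of TNNI3 to TNNI1 was higher in GFP+mCherry+ than in GFP-mCherry+ cells by 1.58 (exact permutation p = 0.015, adjusted p = 0.0383). It was lower in GFP-mCherry+ than in GFP-mCherry- cells, at -2.33 (exact permutation p = 0.01, adjusted p = 0.032). The first call was lost without library 1, 5, 7, 11, 13 or 14 (values 1.23 to 1.62) and the second without library 11, 13 or 14 (values -2.33 to -2.21). The ratio between the days was 0.19 (exact permutation p = 0.548), and that between GFP+mCherry+ and GFP-mCherry- cells -0.75 (exact permutation p = 0.17, adjusted p = 0.227), the latter called at -1.07 without library 12.

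TPM2 made up 4.29% to 18.6% of the tropomyosin pair (TPM2 plus TPM1) in single libraries. The log2 ratio of TPM2 to TPM1 was higher in GFP+mCherry+ than in GFP-mCherry+ cells by 0.78 (exact permutation p = 0.01, adjusted p = 0.032), with group means of 11.3% and 8.22% at day 25 and 12.3% and 6.60% at day 40. It was lost without library 1, 5, 7, 10, 11, 13, 14 or 17 (values 0.63 to 0.87). GFP-mCherry+ against GFP-mCherry- cells gave -0.71 (exact permutation test, adjusted p = 0.104), called at -0.87 without library 6. ACTA1 made up 0.206% to 3.57% of the actin pair (ACTA1 plus ACTC1). None of the 4 comparisons of its ratio to ACTC1 had an adjusted p under 0.05, the nearest being GFP-mCherry+ against GFP-mCherry- cells at -2.16 (exact permutation p = 0.025, adjusted p = 0.05). Without library 2, 12 or 17 that comparison was called, at -2.63 to -2.46, as was GFP+mCherry+ against GFP-mCherry- cells without library 12 (-1.92) and day 40 against day 25 without library 17 (-1.09). In GENCODE v29, transcripts of the cytoplasmic actin ACTB hold 0.737% of the words of 50 bases of ACTA1 transcripts, and none of 100 bases. No other pair within the troponin, tropomyosin or actin families tested shared a word of either length.

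**Figure D3:**
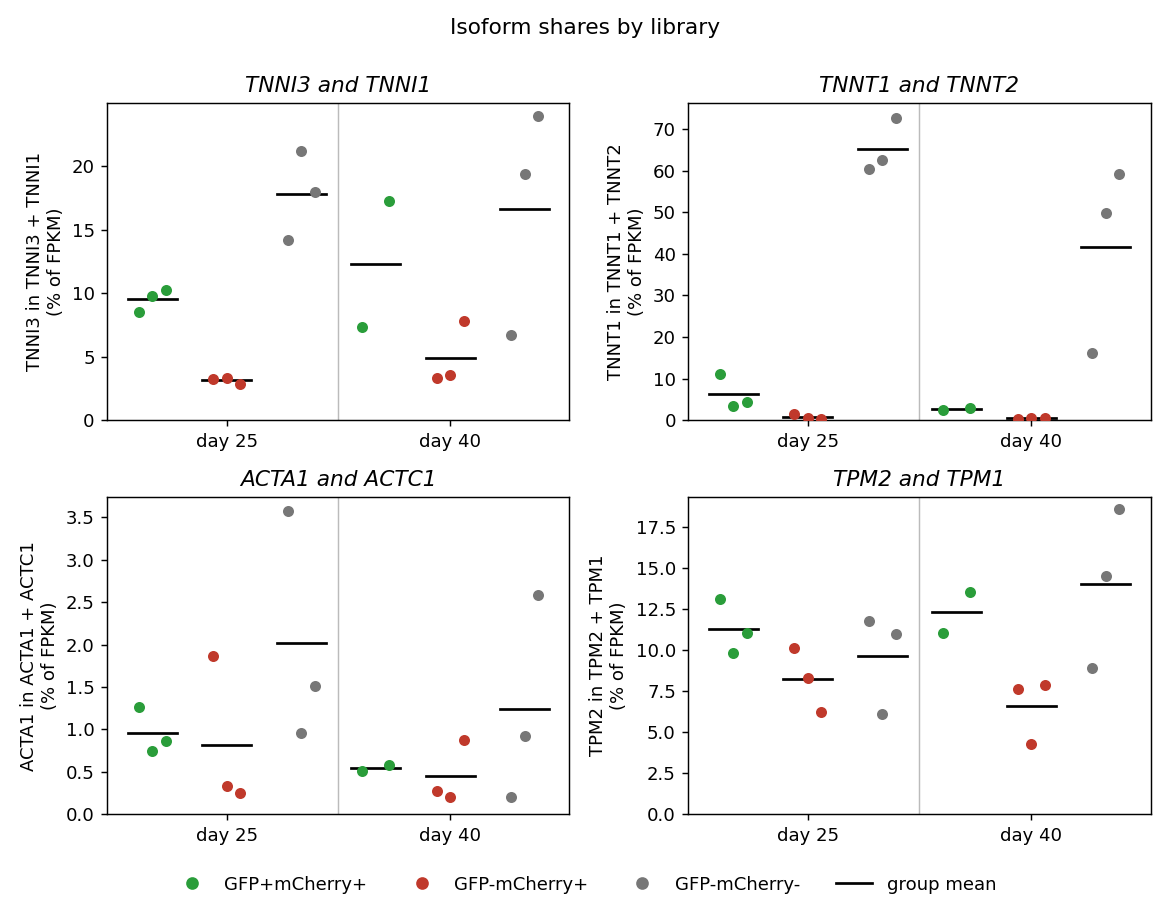
Share (%) of the first gene of each pair in the summed FPKM of both genes, in each library (points, with bars at group means), by day and sorted population. TNNT1 rises above 60% of the troponin T pair in the GFP-mCherry- libraries of day 25 and stays under 12% in every mCherry+ library, and TNNI3 stays under 24% of the troponin I pair throughout.

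Between the days, 0 of the 9 members were called. This held for day 40 against day 25 in GFP+mCherry+ (4.06% of all genes called), GFP-mCherry+ (4.55% called) and GFP-mCherry- cells (3.87% called). In this order, limma gave 0, 0 and 4 members an unadjusted p under 0.05, beside 2975, 2709 and 2630 of all 14845 genes. In GFP+mCherry+ cells the members ranged from -0.76 ± 0.72 for ACTA1 to 0.47 ± 0.52 for TNNT2. In GFP-mCherry+ cells they ranged from -0.63 ± 0.56 for TNNI1 to 0.84 ± 0.54 for ACTC1. In GFP-mCherry- cells they ranged from -0.87 ± 0.36 for TNNI3 to 1.77 ± 0.54 for ACTC1 (adjusted p = 0.0886), whose day 40 libraries all lay above those of day 25. Quality weights called both of these (adjusted p = 0.0414 for TNNI3 and 0.0372 for ACTC1), and ACTC1 was called at 2.38 without library 15.

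The population differences did not change between the days beyond the threshold in any member. By limma 0 of 9 were called for GFP+mCherry+ against GFP-mCherry+ cells (0.0135% of all genes called) and for GFP-mCherry+ against GFP-mCherry- cells (0.00674% called). The same held for GFP+mCherry+ against GFP-mCherry- cells (1.24% called). In this order, 978, 994 and 1223 of all 14845 genes had an unadjusted p under 0.05, beside 0, 0 and 1 members. The last was ACTC1, at -1.79 ± 0.82 (adjusted p = 0.585).

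Other genes of the thin filament were described from lists drawn up by function. Of 9 other troponin, tropomyosin and actin isoforms, 2 were higher and 1 was lower in GFP+mCherry+ than in GFP-mCherry+ cells at day 25. Their median was 0.62. Over all genes tested, 20.4% were called in this comparison at day 25 and 25.5% at day 40. The cytoplasmic actins ACTB and ACTG1 were higher by 0.98 ± 0.26 (adjusted p = 0.015) and 0.79 ± 0.26 (adjusted p = 0.0412). TNNC2, the fast skeletal troponin C, was lower at -0.91 ± 0.20 (adjusted p = 0.00628), at low levels in both populations. At day 40 TNNC2 alone of the 9 was called, at -0.86 ± 0.23 (adjusted p = 0.0114).

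Of 17 tested genes for filament capping, length and scaffold, 2 were higher and 6 lower in GFP+mCherry+ than in GFP-mCherry+ cells at day 25. At day 40, 0 were higher and 9 lower. The shares called over all genes were 20.4% and 25.5%. FHOD3, a formin of sarcomere assembly, was lower at -1.84 ± 0.25 (adjusted p = 0.000324) and -2.03 ± 0.28 (adjusted p = 0.000258). XIRP1, an actin-binding protein of intercalated discs, was lower at -3.004 ± 0.47 (adjusted p = 0.000767) and -2.62 ± 0.52 (adjusted p = 0.0024). LMOD2, a leiomodin that lengthens cardiac thin filaments, was lower at -3.61 ± 0.58 (adjusted p = 0.000998) and -3.16 ± 0.65 (adjusted p = 0.00297). The medians of the list were -0.44 and -0.75, beside 0.06 and 0.08 over all genes.

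Of 19 transcription factors of muscle genes, 0 were higher and 6 lower in GFP+mCherry+ than in GFP-mCherry+ cells at each day. Beside this, 20.4% of all genes were called at day 25 and 25.5% at day 40. NKX2-5, a homeobox factor of the working heart muscle, was lower at -3.75 ± 0.55 (adjusted p = 0.000553) and -3.35 ± 0.61 (adjusted p = 0.00141). MYOCD, the cofactor of serum response factor, was lower at -2.05 ± 0.34 (adjusted p = 0.00126) and -2.11 ± 0.38 (adjusted p = 0.00135). SRF itself, the factor that binds CArG boxes, had a difference of -0.46 ± 0.23 at day 25 (adjusted p = 0.167). In GFP-mCherry+ against GFP-mCherry- cells, 9 of the 19 factors were higher and 0 lower at day 25 (28.5% of all genes called). At day 40, 9 were higher and 1 lower (31.9% called).

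Markers of cardiomyocytes and of other cell types were also called between GFP+mCherry+ and GFP-mCherry+ cells. There, 20.4% of all genes tested were called at day 25 and 25.5% at day 40. Of 13 cardiomyocyte markers outside the thin filament, 9 were lower and 0 higher in GFP+mCherry+ than in GFP-mCherry+ cells at day 25, and 10 lower and 0 higher at day 40. Their summed FPKM was 5514 to 13162 against 21599 to 27821 at day 25, and 4832 to 9429 against 14942 to 27377 at day 40, where MYH6 is listed at 0 in library 17. Of 8 fibroblast markers, 5 were higher and 0 lower in GFP+mCherry+ cells at each day, with sums of 10115 to 16164 against 3427 to 4026 FPKM at day 25 and 12789 to 14839 against 2377 to 9724 FPKM at day 40. In GFP-mCherry- cells the fibroblast sums were 9124 to 10370 and 14515 to 27568 FPKM. Of 8 smooth muscle markers 2 were higher at each day, and 1 was lower at day 40. The day 25 count was near the share over all genes. TBX18 is in both the epicardial list, given next, and the sinoatrial list. Of 7 epicardial markers 3 and 2 were higher at day 25 and day 40, of 3 tested endothelial markers 2 and 2, of 9 tested epithelial and endoderm markers 5 and 1, and of 4 blood and immune markers 1 and 4, with 0 lower in each of these lists. Summed FPKM of the epithelial and endoderm markers was 2121 to 2852 in GFP+mCherry+ against 814 to 1357 in GFP-mCherry+ cells at day 25, and that of the blood and immune markers 66.5 to 147 against 19.8 to 31.3 at day 40. The part of such cells in the levels of the thin filament genes was not tested.

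Over the 17 libraries, 8 of the members followed each other and TNNT1 opposed them. Pearson's r of log2(FPKM + 1) was 0.99 between TNNT2 and ACTC1, 0.94 between TNNC1 and TNNI1 and 0.94 between TNNI1 and TPM1. TNNT1 had negative r with each of the others, from -0.92 with TNNT2 to -0.54 with TPM2. These values describe libraries of 6 groups that differ widely, and libraries of a group are not independent points.

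**Figure D4:**
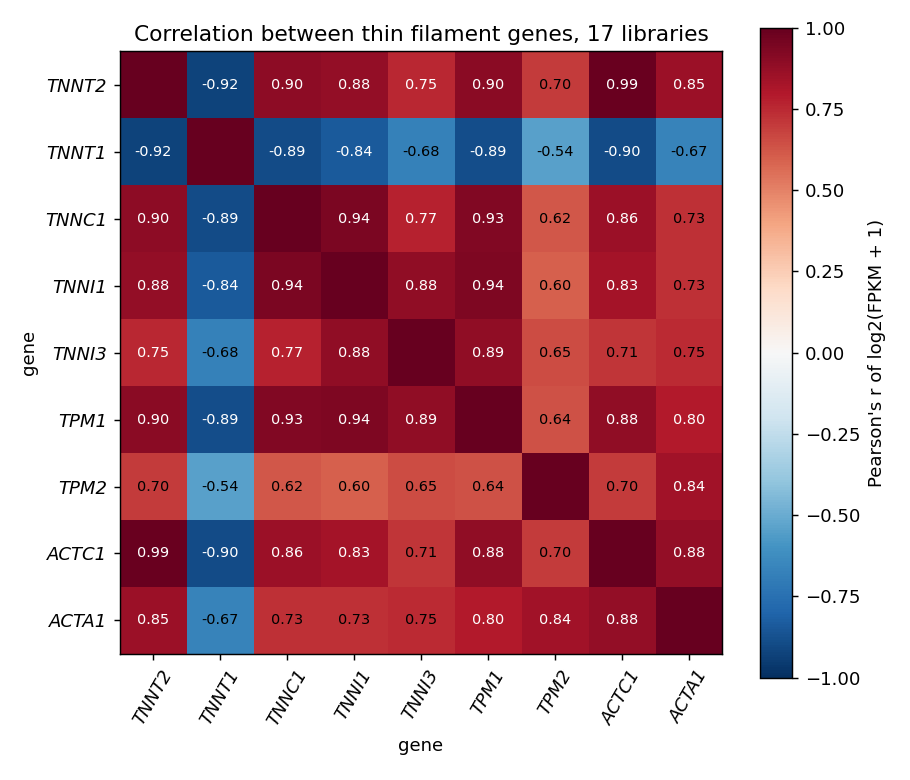
Pearson's r between log2(FPKM + 1) of each pair of genes (rows and columns) over the 17 libraries, red for positive and blue for negative values. The row of TNNT1 is blue throughout, and TPM2 has the palest red values.

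The genes most like each member were sought among 10713 tested genes with a mean of at least 5 FPKM, by the same r over 17 libraries. TNNT2 was closest to TTN (0.995), the giant protein titin, then FAM189A2 and LDB3. ACTC1 was closest to ATP2A2 (0.991), the calcium pump of the sarcoplasmic reticulum, then POPDC2 and PLN. TNNC1 was closest to DUSP27 (0.993), XIRP1 and FHOD3, and TNNI1 to FITM1 (0.987), RCSD1 and NKX2-5.

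TPM1 was closest to VDAC3 (0.977), CISD1 and SLC25A4, all genes of mitochondrial proteins, and TNNI3 to C20orf166 (0.970), FAM216A and DLAT. The lowest leading values were those of ACTA1, with NPTN (0.952), MICAL2 and CMTM5, and of TPM2, with TIMM21 (0.895), LIMS2 and DCTN1. TNNT1 was closest to ABRACL (0.978), COL9A3, a collagen gene of cartilage, and SYT10.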

How the data were processed

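The authors deposited a table of FPKM for 20368 rows, with 71 duplicate identifiers. The unit was taken from Cufflinks 2.1.1, named with STAR 2.5.2b, cutadapt, bcl2fastq 2.19 and hg19 per the submitters' processing notes, and from the values; read depth and read length are not given in the sources used here, so no counting intervals or floors were computed. Libraries were made with a TruSeq kit, per the labels' protocols. Rows sharing a gene name were merged. Genes with at least 1 FPKM in 2 libraries were fitted on log2(FPKM + 1) with limma 3.58.1 in R 4.3.3 (6 group means, 17 libraries, 11 residual degrees of freedom, trended eBayes). Values of p were adjusted by Benjamini-Hochberg over 14845 genes within each comparison. Standard errors are those of the moderated fit. Isoform ratios were tested by exact permutation within days or populations. The fit was tested on simulated data for GFP+mCherry+ against GFP-mCherry+ cells. A log2 change of 1 was called in 50% of changed genes at day 25 and 42% at day 40. A change of 2 was called in 93% and 91%. In the data 20.4% and 25.5% of genes were called, so these shares hold for the simulated setting only. A member that was not called may still differ. Promoters are from RefSeq (GRCh38.p14). TNNC1 and TNNI1 were not matched. The members were given. Genes named from the lists drawn up by function were those with the smallest adjusted p in their list (SRF was added for its CArG boxes). SHOX2, HCN4 and MYH6, from the marker lists, were not picked by this rule. Lists and members were chosen with earlier results of these data known. Alternatives were a pseudocount of 0.1, other filters, 2 scalings, separate fits of the groups compared, quality weights, a block on library sets, zeros set to missing, and libraries left out.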

Additional observations from a re-analysis of the deposited data

How the results depend on the processing

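Read depth is unknown, and groups of 2 or 3 libraries limit what could be called; a library left alone in its group was assumed to vary like the others. The block on library sets (libraries 1 to 3, 4 to 6 and so on) was not run between days, because sets lie within a day. The labels give the groups no shared replicate numbers. All 27 alternatives left GFP-mCherry+ against GFP-mCherry- cells at 8 or 9 calls at each day. Calls over all genes then ran from 3114 to 7588 at day 25 and from 3298 to 5157 at day 40. For GFP+mCherry+ against GFP-mCherry+ cells at day 40, the member calls fell from 7, among 3783 over all genes. They were 3 with no filter (3902 over all genes) and 4 with only the groups compared (1304). With quality weights they were 4 (2677), and without libraries 13 and 14 they were 2 (1858). At day 25 they fell from 5, among 3023, to 3 under quantile normalization (2887). Quality weights gave 9 calls for GFP+mCherry+ against GFP-mCherry- cells at day 25, where calls over all genes went from 1641 to 6138, and 2 for day 40 against day 25 in GFP-mCherry- cells, where they went from 575 to 1624. With 1 library left out, GFP+mCherry+ against GFP-mCherry+ cells had 2 to 5 and 1 to 7 member calls. Calls over all genes were 1766 to 3339 and 1241 to 4237. GFP+mCherry+ against GFP-mCherry- cells had 3 to 6 and 2 to 5 (859 to 1815 and 546 to 2070 over all genes). Between the days in GFP-mCherry- cells the range was 0 to 1 (154 to 701 over all genes). The cause was not tested.

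Single differences turned sign only where they had not been called. In GFP+mCherry+ against GFP-mCherry+ cells TPM2 at day 40 was 0.012 under quantile normalization, 0.10 with the block and -0.53 to 0.11 with 1 library left out, and ACTA1 at day 25 was 0.063 with quality weights and -0.68 to 0.33 with 1 library left out. TNNC1 in GFP+mCherry+ against GFP-mCherry- cells at day 40 ranged from -0.026 to 1.75, and the change between the days of the TNNT2 difference of GFP+mCherry+ from GFP-mCherry+ cells from -0.18 to 0.46. Further differences between the days, and changes between the days, also turned sign. The change of the TNNI1 difference of GFP-mCherry+ from GFP-mCherry- cells kept its direction in 17 of 26 alternatives. Of the member calls in the 2 comparisons of GFP+mCherry+ cells, those of TNNC1 and TNNI1 against GFP-mCherry+ cells at day 25, of TNNC1 at day 40, of TNNT2, ACTC1 and ACTA1 against GFP-mCherry- cells at day 25 and of TNNT2 at day 40 were kept in all 27 alternatives.

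Leaving out libraries 13 and 14 lowered the number of arrangements, which raises the lowest p possible. No isoform ratio then had an adjusted p under 0.05. TNNT1 to TNNT2 was then 2.73, -7.60, -4.87 and -1.15 in the order GFP+mCherry+ against GFP-mCherry+, GFP-mCherry+ against GFP-mCherry-, GFP+mCherry+ against GFP-mCherry- and day 40 against day 25. TNNI3 to TNNI1 was 1.14 and -2.24 in the first 2 of these, and TPM2 to TPM1 was 0.55 in the first and turned to -0.012 in the third. With 1 library left out, TNNT1 to TNNT2 ranged over 2.55 to 3.11, -8.04 to -7.32, -5.22 to -4.49 and -1.28 to -0.80, and TNNI3 to TNNI1 over 1.23 to 1.93, -2.65 to -2.12, -1.09 to -0.40 and -0.038 to 0.43. TPM2 to TPM1 ranged over 0.63 to 0.87, -0.88 to -0.56 and -0.10 to 0.21 in the first 3 comparisons, and ACTA1 to ACTC1 over -2.63 to -1.83, -1.92 to -1.12 and -1.11 to -0.58 in the last 3.

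Counts over all genes tested also moved. For GFP+mCherry+ against GFP-mCherry+ cells, 3023 calls at day 25 ran from 1766 with a library left out to 7677 with quality weights, and 3783 at day 40 from 1241 to 4237 with a library left out. At day 40 the 2404 genes higher and 1379 lower became 1830 and 1835 under quantile normalization, which moved the median of all genes from 0.08 to -0.06.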
